A study of Saccharomyces cerevisiae with 6 samples.

Results

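The genes described here encode the transcription regulators of the sulfur regulon of the budding yeast Saccharomyces cerevisiae, the set of genes for taking up sulfate and making methionine, cysteine and S-adenosylmethionine. They are MET4 (YNL103W), MET28 (YIR017C), CBF1 (YJR060W), MET31 (YPL038W), MET32 (YDR253C) and MET30 (YIL046W), 6 genes of the 5449 measured. They were chosen by name through the platform's annotation, and each was read by 1 probe set. RNA had been measured on 3 Affymetrix arrays of a strain carrying a GCN4 deletion and on 3 arrays of the wild-type strain FY4, a laboratory strain that needs no amino acid supplements. Both strains had grown in batch in glucose minimal medium and were harvested while growing exponentially, and no other allele or treatment is named for either. GCN4 encodes the activator of amino acid biosynthesis genes, and the comparison asked how its loss altered expression relative to FY4. Neither the parent of the mutant, the number of clones nor the origin of the replicates is given in the labels, so the p-values below measure only the spread between these arrays.

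Met4 is the activator of the sulfur regulon. It does not bind DNA stably alone and is brought to promoters either by a complex with Cbf1 and Met28 or by the zinc finger proteins Met31 and Met32. When sulfur compounds are plentiful, Met30, the F-box subunit of an SCF ubiquitin ligase, ubiquitinates Met4 and stops it from activating. Met4 in turn activates the MET30 and MET28 genes, so that the complex regulates its own parts. Earlier work in yeast placed MET4 and MET28 among the genes that Gcn4 can activate.

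Values are the deposited normalised intensities, and changes are log2 differences, deletion minus wild-type, with the 95% confidence interval from limma. GCN4 itself, which checks the labels, had intensities of 18.5, 22.3 and 18.1 in the deletion strain, all at the background level, against 23339, 18826 and 20141 in the wild-type. The median intensity of all genes was 2281 to 2341 on the deletion arrays and 2112 to 2206 on the wild-type arrays, and the median log2 change of all genes was 0.09. Centring each array on its median shifted that value by -0.10, and quantile normalization shifted it by -0.11. The a-cell marker genes STE2, MFA1, MFA2, STE6 and BAR1 lay above the background level on all arrays. Over the 6 arrays STE2 read 16341 to 20454, MFA1 4568 to 15088 and MFA2 5989 to 15039. STE6 read 8473 to 10614 and BAR1 7010 to 12857. The alpha-cell genes STE3 (155 to 196), MF(ALPHA)2 (203 to 334) and SAG1 (1057 to 1746) were above background as well, at lower intensities. MF(ALPHA)1, also an alpha-cell gene, was above that level on the 3 deletion arrays and at it on the 3 wild-type arrays. With the background level as a floor it was at least 1.13-fold higher in the deletion. At an adjusted p under 0.05 (limma) 32.2% of all 5449 genes were called, 24.6% higher and 7.67% lower in the deletion. Beside those shares, 2 of 5 genes of the a-cell list rose, 2 of 4 genes of the alpha-cell list rose and 2 fell, and 3 of 6 measured genes used as auxotrophic markers fell. The 3 markers were LEU2 (1.35-fold), HIS3 (1.45-fold) and ADE2 (1.17-fold), and each stayed above the background level on every array. The part of these differences between the strains in the results below was not tested.

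The loss of GCN4 went with small differences at the sulfur regulators. Of the 6 genes, 1 rose, 0 fell and 5 did not pass the test at an adjusted p under 0.05. The gene that rose was MET30, the ubiquitin ligase subunit that restrains Met4, and its change was 1.13-fold. Against the 24.6% of all genes called higher and the 7.67% called lower, these counts are near those of genes in general. The median log2 change of the 6 genes was 0.16, beside 0.09 for all genes. The median size of the change without its sign was 0.16 for the 6 genes and for all genes alike. All 6 were above the background level on every array of both strains. These are RNA samples of whole cultures, in which fewer expressing cells and less RNA per cell cannot be told apart.

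**Figure D1:**
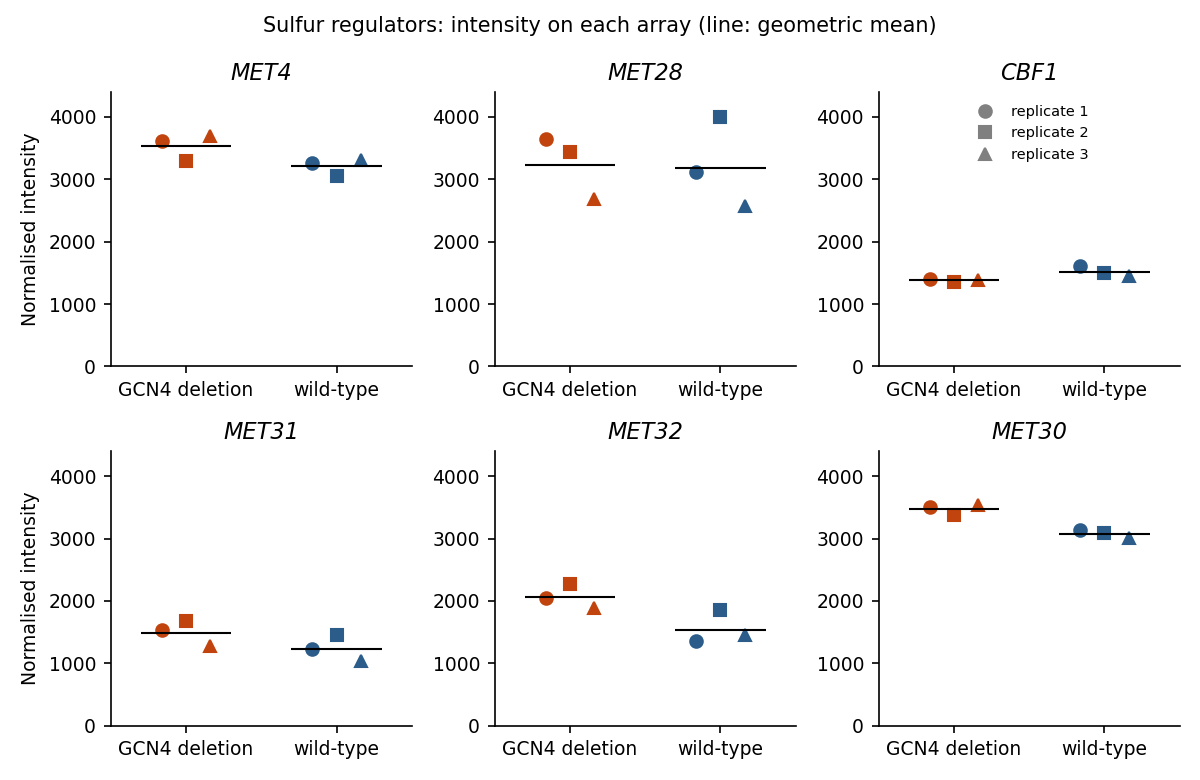
Normalised intensity (vertical axis, linear from 0) of the 6 regulator genes on each array, GCN4 deletion left and wild-type right, with replicate numbers as symbols and the geometric mean of each group as a line. The MET32, MET30 and CBF1 values of the groups do not overlap, and the MET28 values overlap widely. Heights are not comparable between genes.

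MET4 encodes the activator on which the regulon depends. Its intensity was 3613, 3293 and 3701 in the deletion strain, against 3265, 3057 and 3304 in the wild-type. The groups overlapped by 1 array, the lowest deletion value lying just below the highest wild-type value. The log2 level was 11.79 ± 0.09 in the deletion and 11.65 ± 0.06 in the wild-type (SD, n = 3 each). The log2 change was 0.14 (95% interval -0.02 to 0.29, adjusted p = 0.152, limma). The interval reached no lower than -0.02. Fitting the replicate number as a block gave an interval of 0.04 to 0.24 and an adjusted p of 0.0359. After median centring the log2 change was 0.04 (adjusted p = 0.784).

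MET28 encodes a basic leucine zipper protein that strengthens the binding of Cbf1 and Met4 to DNA. Its intensity was 3652, 3440 and 2687 in the deletion strain, against 3124, 4006 and 2577 in the wild-type. The ranges of the groups covered each other, with the replicate numbered 3 lowest in both strains. The log2 change was 0.02 (95% interval -0.43 to 0.47, adjusted p = 0.947). It was between -0.13 and 0.19 over 16 alternatives with 9 above and 7 below 0. Several of the 9, such as the replicate block, leave the main value unaltered and are no separate check of the sign. Fitting the replicate number as a block gave a narrower interval of -0.21 to 0.25 (adjusted p = 0.859).

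CBF1 encodes a basic helix-loop-helix protein that binds the promoters of sulfur genes and also a conserved element of centromeres. Its intensity was 1398, 1360 and 1393 in the deletion strain, against 1618, 1501 and 1446 in the wild-type. Every deletion value was below every wild-type value. The log2 change was -0.14 (95% interval -0.27 to 0.001, adjusted p = 0.119), the lowest among the 6 genes. CBF1 had the narrowest deletion group of the 6, with a log2 SD of 0.02. Measured against the median gene, it fell by 0.24 on the log2 scale after centring (adjusted p = 0.0304), where 12.9% of all genes were called lower and 14.3% higher. The call was also made after quantile normalization, cyclic loess and array weights and after centring with the block, which were 5 of the 16 alternatives.

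MET31 and MET32 encode a pair of related zinc finger proteins that bind the same DNA element and recruit Met4. MET31 had intensities of 1532, 1683 and 1272 in the deletion strain, against 1225, 1449 and 1035 in the wild-type. The groups overlapped, although within each replicate number the deletion value was the higher one. The 3 same-numbered log2 differences were 0.32, 0.22 and 0.30. The log2 change was 0.28 (95% interval -0.09 to 0.65, adjusted p = 0.216), and fitting the replicate number as a block gave an interval of 0.17 to 0.39 and an adjusted p of 0.00548. After median centring it was 0.18 (adjusted p = 0.379).

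MET32 had intensities of 2047, 2276 and 1886 in the deletion strain, against 1351, 1861 and 1454 in the wild-type. The groups did not overlap, but the lowest deletion value exceeded the highest wild-type value by little. The log2 level was 11.01 ± 0.14 in the deletion and 10.59 ± 0.24 in the wild-type (SD, n = 3 each). The log2 change of 0.42, or 1.34-fold, was the largest of the 6 genes (95% interval 0.10 to 0.75), with an adjusted p of 0.0559, just outside the threshold. MET32 passed in the blocked fit (adjusted p = 0.00686) and without wild-type replicate 2 (adjusted p = 0.0123). It did not pass without any other single array (adjusted p of 0.0716 to 0.16). After median centring its log2 change was 0.32 (adjusted p = 0.0962), which did not pass either. Of all genes, 84.9% had a smaller change in either direction than MET32 as deposited. Across the 16 alternatives the log2 change of MET32 lay between 0.31 and 0.56 and that of MET31 between 0.14 and 0.40.

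The within-array difference of MET32 and MET31, which centring an array leaves as it is, was compared between strains to ask whether the paralogs moved unequally. Log2 MET32 minus log2 MET31 was 0.42, 0.44 and 0.57 on the deletion arrays, against 0.14, 0.36 and 0.49 on the wild-type arrays. The size of each difference has no meaning, since probe sets differ in response, and only its change between strains was read. The groups overlapped, and their means differed by 0.14 (exact permutation test, two-sided, p = 0.3, where 3 against 3 arrays cannot give less than 0.1). Within same-numbered arrays the difference was higher in the deletion for 3 of 3 numbers, by 0.28, 0.07 and 0.08 (exact paired permutation test, two-sided, p = 0.25, the lowest that 3 pairs can give). Leaving out single arrays gave 0.05 to 0.22.

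MET30 encodes the F-box protein that targets Met4. Its intensity was 3511, 3379 and 3531 in the deletion strain, against 3132, 3096 and 3007 in the wild-type. Every deletion value was above every wild-type value, and both groups were narrow. The log2 level was 11.76 ± 0.04 in the deletion and 11.59 ± 0.03 in the wild-type (SD, n = 3 each). MET30 rose by a log2 change of 0.17 (95% interval 0.06 to 0.28, adjusted p = 0.0297, limma). The call was lost on leaving out any 1 of the 6 arrays, with adjusted p between 0.0583 and 0.0995. It was also lost after centring, where the log2 change was 0.07 (adjusted p = 0.386), and under quantile normalization (adjusted p = 0.282) or cyclic loess (adjusted p = 0.159). The blocked fit kept it (adjusted p = 0.0231).

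The changes of the activator gene and of its brake were also compared within arrays. Log2 MET30 minus log2 MET4 was -0.04, 0.04 and -0.07 on the deletion arrays, against -0.06, 0.02 and -0.14 on the wild-type arrays. The groups overlapped, and their means differed by 0.04 (exact permutation test, two-sided, p = 0.5, with 0.1 the lowest possible). Within same-numbered arrays it was higher in the deletion for 3 of 3 numbers, by 0.02, 0.02 and 0.07 (exact paired permutation test, two-sided, p = 0.25, the lowest that 3 pairs can give). This difference of the means was between -0.003 and 0.07 on leaving out single arrays, the value below 0 being that without wild-type replicate 3.

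**Figure D2:**
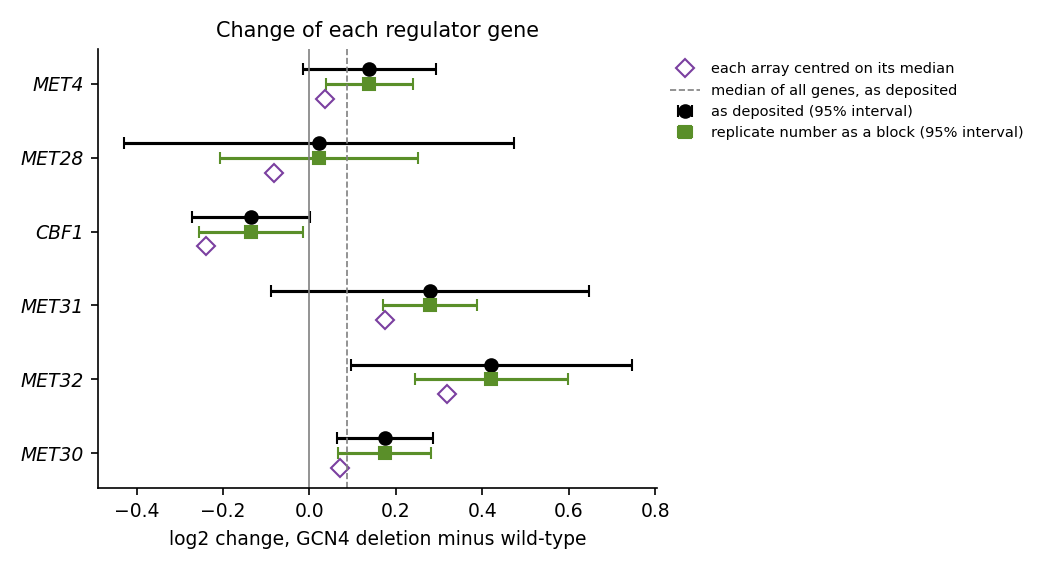
Log2 change (horizontal axis, GCN4 deletion minus wild-type) of the 6 regulator genes, as deposited and in the fit blocked on replicate number, each with its 95% interval, and after median centring (no interval drawn). The interval of MET31 is -0.09 to 0.65 as deposited and 0.17 to 0.39 when blocked, and centring moves every gene to the left by the same amount.

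Groups of arrays did not overlap for 3 of the 6 regulators, namely CBF1, MET32 and MET30, and for 47.5% of all genes. In the blocked fit 4 of the 6 regulators were higher, MET4, MET31, MET32 and MET30, and 0 were lower. The same fit called 35.3% of all genes higher and 12.2% lower. After median centring 0 regulators were higher and 1, CBF1, was lower.

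The 6 genes differed in how far replicates of a strain lay apart. The pooled within-group SD on the log2 scale was 0.28 for MET28, 0.23 for MET31 and 0.20 for MET32, beside a median of 0.09 over all genes. Of all genes 92.9% had a smaller SD than MET28, 88.7% a smaller one than MET31 and 85.5% a smaller one than MET32. MET30 lay at the other end, with an SD of 0.03 and 5.41% of genes below it. MET4 and CBF1 had SDs of 0.08 and 0.06.

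Much of that spread was shared by arrays of the same number. On the arrays numbered 3, MET28 deviated from its group mean by -0.27 in the deletion and -0.305 in the wild-type, and MET31 by -0.225 in the deletion and -0.24 in the wild-type. On the arrays numbered 2, MET31 lay 0.18 above its group mean in the deletion and 0.24 above in the wild-type, and MET32 0.14 above in the deletion and 0.27 above in the wild-type. On the arrays numbered 1 the deviations of MET28 had opposite signs, 0.18 in the deletion and -0.03 in the wild-type. What the replicate numbers stand for is not given in the labels.

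**Figure D3:**
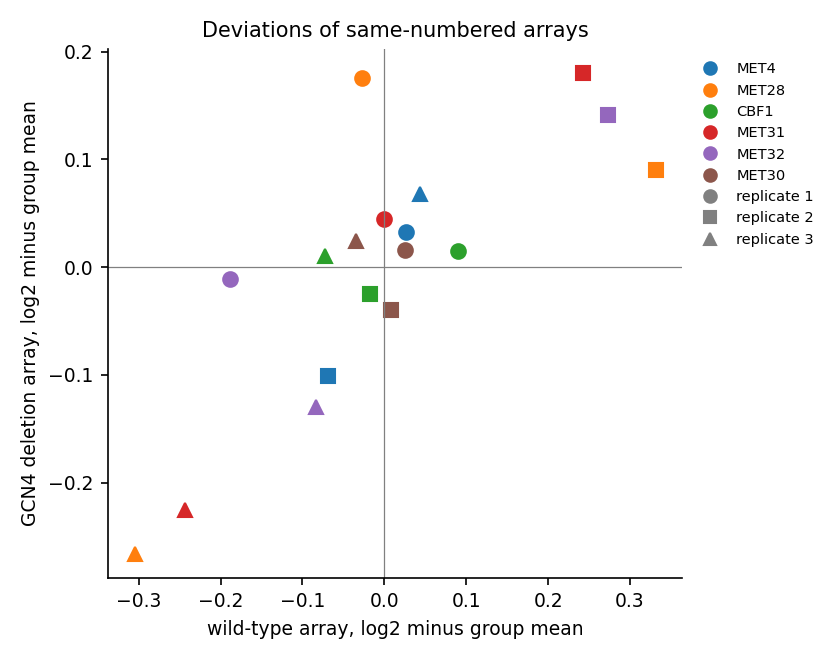
Deviation of each array from its strain's mean on the log2 scale, for the deletion array (vertical axis) and the wild-type array (horizontal axis) of the same replicate number, with 1 point for each of the 6 genes and 3 numbers. MET28 and MET31 of replicate 3 lie at the lower left, and MET31, MET32 and MET28 of replicate 2 at the upper right. The 3 deviations of a gene within a strain add up to 0.

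Over the 6 arrays MET31 and MET32 varied together with a Pearson r of 0.86, MET4 and MET30 with an r of 0.81 and MET28 and MET31 with an r of 0.78, while CBF1 and MET32 had an r of -0.80. These are descriptions over 6 arrays in 2 groups that also share replicate numbers. Ranked by r among 5268 other genes above the background level on all arrays, the genes most like MET32 were PEP12, an endosomal syntaxin gene, at 0.9985 and AYR1, a lipid metabolism reductase gene, at 0.9979. Those most like MET30 were SWH1, an oxysterol-binding protein homologue gene, at 0.9963 and MDJ1, a mitochondrial DnaJ chaperone gene, at 0.9958. SWH1 rose 1.28-fold (adjusted p = 0.00464) and MDJ1 1.55-fold (adjusted p = 0.00101), both by more than MET30. YOL029C and YDR239C were nearest to MET4 (r of 0.9921 and 0.9878), ACM1 and RFS1 to MET28 (0.9909 and 0.9894), CSR1 and SIS2 to CBF1 (0.9859 and 0.9782), and SGF11 and YJL068C to MET31 (0.9936 and 0.9901). Each was picked as one of the 2 highest of 5268 values over the same 6 arrays.

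The genes that Met4 and its partners act on were compared next, in 3 lists that hold 37 measured genes. Of these, 3 fell, 9 rose and 25 did not pass, with a median log2 change of -0.02 beside 0.09 for all genes. With 7.67% of all genes lower and 24.6% higher, the share of the 37 genes that was called in this main fit is near that of genes in general. The 3 lists differed, however, and 8 of the 9 rises were in the list of organic sulfur uptake and recycling. After median centring 9 of the 37 genes fell and 8 rose, where 12.9% of all genes were lower and 14.3% higher. Among 11 genes of sulfate uptake and reduction, 2 fell and 0 rose, again beside 7.67% of all genes lower and 24.6% higher. SUL1, a sulfate permease gene, had intensities of 824, 789 and 519 in the deletion strain, against 9938, 10317 and 10345 in the wild-type. It fell by 3.87 on the log2 scale (adjusted p = 2.97e-05). MET22, which encodes a phosphatase that removes a by-product of sulfate reduction, fell by 0.43 (adjusted p = 0.00228). The other 9 genes, among them the second permease gene SUL2 and the sulfite reductase genes MET5 and MET10, had log2 changes between -0.15 and 0.14.

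Of 15 genes of methionine, S-adenosylmethionine, cysteine and glutathione synthesis, 1 fell, 1 rose and 13 did not pass, beside 32.2% of all genes called in either direction. MET13, a methylenetetrahydrofolate reductase gene, had intensities of 4570, 3997 and 4683 in the deletion strain, against 6921, 7027 and 6046 in the wild-type, and fell by 0.59 on the log2 scale (adjusted p = 0.00369). GSH1, which encodes the first enzyme of glutathione synthesis, rose by 0.21 (adjusted p = 0.0449), a call lost on leaving out any 1 array (adjusted p of 0.0672 to 0.139) and after centring (adjusted p = 0.326). The other 13 genes lay between -0.175 and 0.154 on the log2 scale.

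Of 11 measured genes for uptake and recycling of organic sulfur compounds, 8 rose, 0 fell and 3 did not pass, beside 24.6% of all genes higher and 7.67% lower. The median log2 change of the 11 genes was 0.52, beside 0.09 for all genes. MUP1, a methionine permease gene, had intensities of 9534, 9282 and 8505 in the deletion strain, against 2603, 2591 and 2244 in the wild-type (log2 change 1.88, adjusted p = 2.19e-05). JLP1, which encodes a dioxygenase that frees sulfite from sulfonates, had 515, 471 and 447 in the deletion strain, against 148, 135 and 120 in the wild-type (log2 change 1.84, adjusted p = 4.86e-05). Its wild-type values were dim, beside background levels of 97.9, 77.5 and 89.6 on those arrays. Quantile normalization gave JLP1 a smaller log2 change of 1.37. SAM3, an S-adenosylmethionine permease gene, rose 2.47-fold (adjusted p = 1.23e-05). The other 5 genes that rose were MUP3, MMP1, MHT1, SEO1 and BDS1, by 1.41-fold to 1.86-fold. SAM4, OPT1 and the cysteine transporter gene YCT1 had log2 changes between -0.24 and -0.01 and did not pass.

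**Figure D4:**
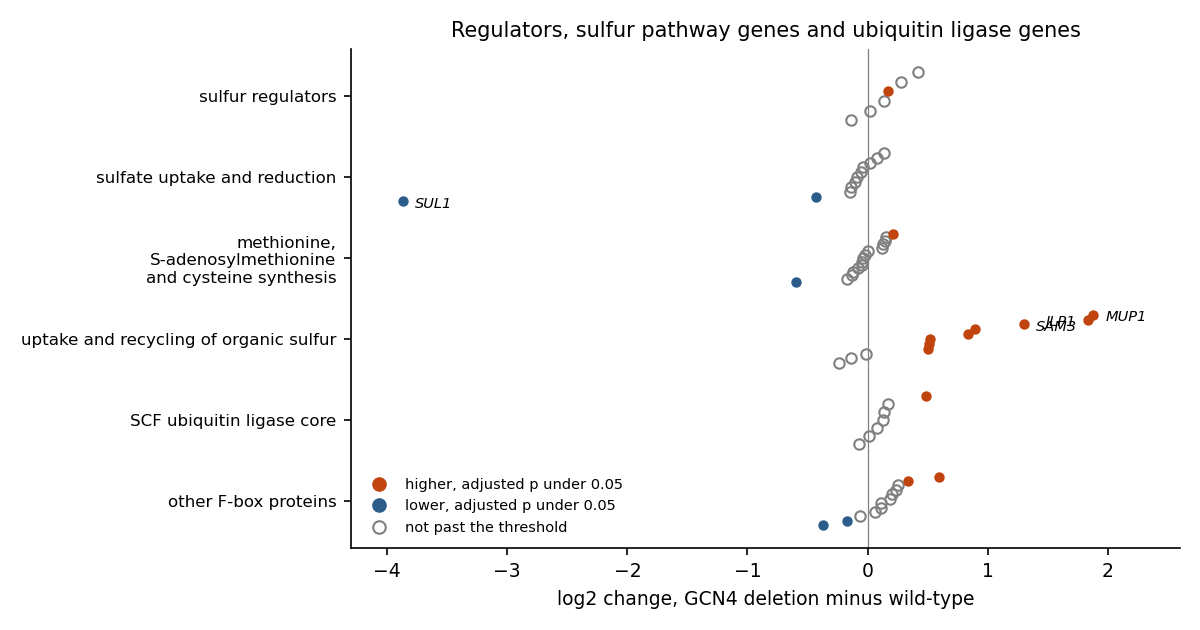
Log2 change (horizontal axis, GCN4 deletion minus wild-type) of each measured gene of the regulators, the 3 sulfur lists and the 2 ubiquitin ligase lists, with filled points for adjusted p under 0.05 (limma). The regulators lie between -0.14 and 0.42, SUL1 stands alone at -3.87, and MUP1, JLP1 and SAM3 lie beyond 1.

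The log2 differences of the regulators, at most 0.42 in size, were smaller than those of SUL1, MUP1, JLP1 and SAM3, each above 1 in size. Those 4 genes were named for having the largest changes of their lists, and all 4 were called in all 16 alternatives. The 25 sulfur genes that did not pass had log2 changes between -0.237 and 0.154, smaller in size than that of MET32. The 3 lists were put together with earlier results of these data known, and their counts are descriptions.

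Met30 works in an SCF complex with the cullin Cdc53, the linker Skp1, the RING protein Hrt1 and the ubiquitin-conjugating enzyme Cdc34. Of 7 genes for this core and its modification by Rub1, 1 rose, 0 fell and 6 did not pass, beside 24.6% of all genes higher and 7.67% lower. CDC34 had intensities of 4599, 4284 and 5058 in the deletion strain, against 3504, 3263 and 3186 in the wild-type, a log2 change of 0.48 (adjusted p = 0.00451). CDC53 and SKP1 had log2 changes of 0.08 and 0.01. Of 12 genes for other F-box proteins 2 rose, 2 fell and 8 did not pass, a called share close to the 32.2% of all genes. UFO1, whose product targets the Ho endonuclease, rose 1.51-fold (adjusted p = 0.000791), and GRR1, which acts in glucose signalling and on cyclins, rose 1.26-fold (adjusted p = 0.0158), a call lost after centring (adjusted p = 0.0791) and without wild-type replicate 1 (adjusted p = 0.0583). CTF13, an F-box subunit of the kinetochore, fell 1.29-fold (adjusted p = 0.00454).

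CTF13 also belongs to the 6 inner kinetochore genes listed as partners of Cbf1 at centromeres. It was the only one of the 6 to pass, beside 32.2% of all genes, and the other 5, CBF2, CEP3, SKP1, MIF2 and CSE4, lay between -0.16 and 0.13 on the log2 scale. Among 7 other basic helix-loop-helix factor genes 1 rose and 1 fell, a called share close to the 32.2% of all genes. HMS1 had intensities of 174, 219 and 214 in the deletion strain and was at the background level on all wild-type arrays, at least 2.29-fold higher (adjusted p = 8.96e-05). TYE7, an activator of glycolytic genes, fell by 0.33 (adjusted p = 0.0444), a call lost on leaving out any array except deletion replicate 1 or wild-type replicate 3 (adjusted p of 0.0931 to 0.131). Of 13 other basic leucine zipper genes 3 rose and 2 fell, GCN4 included, also near the 32.2% of all genes called. YAP6 had a log2 change of 3.81 (adjusted p = 4.65e-06) and CIN5 of 0.93 (adjusted p = 0.00121), both larger than any change among the sulfur regulators.

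The nearest measured gene on each side of each regulator was looked at as well. Of these 12 neighbours 7 rose and 2 fell, beside 24.6% and 7.67% of all genes. LEU4, a leucine biosynthesis gene next to MET4, fell 1.19-fold (adjusted p = 0.0109), while POL1 on the other side of MET4 rose 1.14-fold (adjusted p = 0.0341). CHL4, a kinetochore gene next to MET32, rose 1.44-fold (adjusted p = 0.00291), whereas BTT1 on the other side fell 1.37-fold (adjusted p = 0.0132). YIR016W next to MET28 rose 1.41-fold (adjusted p = 0.00196). PTK2 next to CBF1 rose 1.22-fold (adjusted p = 0.0226) and YPL038W-A next to MET31 rose 1.18-fold (adjusted p = 0.0427). Beside MET30, PIG2 rose 1.22-fold (adjusted p = 0.0149), and YIL046W-A, which exceeded background on 2 of the 3 wild-type arrays, was at least 1.51-fold higher (adjusted p = 0.0383). Of the 9 calls, 3 (LEU4, YIR016W and CHL4) were kept on leaving out any array, and 6 were lost on leaving out at least 1. Under centring POL1, PTK2, YPL038W-A and PIG2 lost their calls (adjusted p of 0.0662 to 0.345).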

How the data were processed

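RNA of 3 GCN4 deletion and 3 wild-type samples was labelled with biotin and hybridised to Affymetrix arrays, per the labels' protocols. The deposited file holds linear normalised intensities from the authors, between 9.03 and 35044, and R 2.8.0, affy and RMA are named in the submitters' processing notes without role or order. The design had foreseen a linear scale, so log2 was taken with no pseudocount. The number of arrays limits the precision.

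Probe sets were named by gene identifier through the platform's annotation and the R64 gene table, which gave 5498 S. cerevisiae probe sets and, with the highest mean over the 6 arrays where a gene had several, 5449 genes. Neighbours of the regulators were found by the start positions of genes on each chromosome in that gene table. No sequences were used, so the planned search for promoter motifs was not run. The background level of an array was the 95th percentile of its 1746 probe sets for another species. For the fold alone, a gene at or below it on some or all arrays of a group was set to it there, and that fold is given as "at least". Log2 changes, intervals and adjusted p-values came from the values without this floor.

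The deletion was set against the wild-type in R 4.3.3 with lmFit and eBayes of limma 3.58.1 (two-sided, Benjamini-Hochberg over all genes, threshold 0.05), after a test on simulated data. Named genes follow a rule: all regulators, up to 3 called genes of each list with the largest changes and no overlap of groups, 2 genes most like each regulator, and called neighbours. Other list members are named to complete a count of 5 or fewer or to give a function, and were chosen with their values seen. The regulators, lists and tests were chosen with earlier results of these data known. Of the listed genes, SOA1 and TRP1 had no probe set here.

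Deviations from the group means correlated with r of 0.69, 0.53 and 0.71 between same-numbered arrays of the strains, above the limit of 0.1. The numbers were therefore taken as pairs, but only in the blocked fits and the paired permutation tests. The main fit, which gave the calls unless another setting is named, had no term for the replicate number. The labels do not say what a number marks, so this pairing rests on the values alone, and 1 pair of different numbers had an r of 0.23. As alternatives, the normalization, the probe sets used, a filter on dim genes, array weights, the moderation of variances, a fold limit of 1.5 and the replicate block were varied, and each array was left out in turn. Counts and ranges given over 16 alternatives do not include the fold limit. Figures were drawn with matplotlib 3.10.9.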

Additional observations from a re-analysis of the deposited data

How the results depend on the processing

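Calls at the regulators depended on the scaling and on the treatment of replicate numbers. The number of regulators called lower was 0 as deposited and 1 (CBF1) after median centring, quantile normalization, cyclic loess, array weights, and the replicate block with median centring. The number called higher was 1 as deposited, 4 with the replicate block, 2 with array weights and with the replicate block and median centring, and 0 after median centring, quantile normalization or cyclic loess, when all probe sets other than controls were fitted, or at a limit of 1.5-fold. On leaving out single arrays it was 0 to 1, and the 1 was MET32 without wild-type replicate 2. Of the sulfur enzyme and transporter genes 3 were lower as deposited, 5 after quantile normalization, cyclic loess, eBayes with trend and robust, or array weights, 6 with the replicate block, 9 after median centring and 16 with the replicate block and median centring. Those called higher numbered 9 as deposited, 12 with the replicate block, 10 with eBayes with trend and robust, 8 after median centring, quantile normalization, cyclic loess, or the block with centring and when all probe sets other than controls were fitted, 8 to 9 on leaving out arrays, and 5 at a limit of 1.5-fold. Of all genes 7.67% were lower and 24.6% higher as deposited, and 12.2% lower and 35.3% higher with the replicate block. After median centring 12.9% were lower and 14.3% higher. Under the other settings the share of all genes was not counted, so the counts of regulators and sulfur genes there have no baseline. The within-array difference of MET30 and MET4 between strains was 0.04 and ranged from -0.003 (without wild-type replicate 3) to 0.074 on leaving out arrays. Over 16 alternatives MET4, MET31, MET32 and MET30 kept a positive and CBF1 a negative log2 change. The dim-gene filter, the choice of probe sets, the moderation of variances and the replicate block leave these changes exactly as in the main fit. The signs under those settings therefore add no information. MET4 was called in 1, MET31 in 2, MET32 in 4, MET30 and CBF1 in 5 each and MET28 in 0 of them. Changes as small as those of MET4, CBF1 and MET30 are near the shift that centring makes, and 3 arrays a group limit what can be called. The causes of these differences between settings were not tested.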
